A study of Mus musculus with 2 samples.

Results

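The genes of mitochondrial ribosomal proteins were described here in the left cerebral cortex of the newborn mouse. The members were all protein-coding genes whose symbol is Mrpl or Mrps followed by a number and, in some, a letter, which gave 78 of 55536 annotated genes, or 78 of 22028 protein-coding genes. Total RNA was sequenced from this tissue in female B6CASTF1/J mice, hybrids of C57BL/6J and CAST/EiJ, at an age of 4 days. Both libraries formed 1 group, replicates 1 and 2, with no treatment and no second genotype, so no condition was compared. The labels number the animals separately but give them the same donor identifier, so a difference between the libraries covers animal, dissection and library preparation together, and these cannot be told apart. Each library was made from 300 ng of RNA with spike-in RNAs added for stranded libraries depleted of ribosomal RNA. The gene table held 29310533 and 28844674 expected counts, and the members held 38952 and 36687 of them, between 120 and 1040 per gene and library.

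Mitochondria carry their own ribosome, which translates only the mRNAs of the mitochondrial genome, all of them for subunits of the respiratory chain and the ATP synthase. Its ribosomal RNAs come from the mitochondrial genome, while its proteins are encoded in the nucleus, made in the cytosol and imported. Compared with the bacterial ribosome from which it descends, it has less RNA and more protein, and many of its proteins have no bacterial counterpart. The members were therefore sorted by subunit (51 large, 26 small) and by whether the protein is a homolog of a bacterial ribosomal protein (46) or occurs in mitochondrial ribosomes only (31). Mrps30 and Mrps18a carry small subunit names but their proteins belong to the large subunit, and Mrps36, which carries such a name too, encodes a subunit of the 2-oxoglutarate dehydrogenase complex and was put in neither subunit.

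The labelled tissue was checked against marker genes. All 6 neuron markers were detected, with a summed level of 2021 and 1971 TPM (transcript abundance scaled by length and by the total of the library) in replicates 1 and 2. Of 3 markers of other brain regions (Hoxb3, Hoxa5 and Tcf7l2) 1 was detected, and their sum was 8.39 and 5.92 TPM. Only Hoxb3, a hindbrain gene, was at 0 in both libraries. The libraries differed in markers of other cells: 3 choroid plexus markers summed to 211 TPM in replicate 1 and 3.21 in replicate 2, and 3 red blood cell markers to 327 and 41.7 TPM. The part of this difference in the values below was not tested.

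All 78 genes were detected, at 1 TPM or more in both libraries. Their mean levels spanned 17.0-fold, from 4.91 TPM for Mrpl23 to 83.5 TPM for Mrpl30, and without Mrpl23 they spanned 11.3-fold. Most lay in a narrow band: 69 of 78 were between 10 and 60 TPM and 41 were between 20 and 40 TPM. The median was 24.2 TPM in replicate 1 and 24.1 in replicate 2, at percentiles 61.9 and 59.97 of the 13124 protein-coding genes detected in both libraries. The quartiles of the members' levels differed 1.88-fold, against 5.75-fold for all detected protein-coding genes. Related lists, described below, were narrow too. Their quartiles differed 2.16-fold for cytosolic ribosomal proteins, 1.97-fold for synthetases, 1.72-fold for mitochondrial transcription and 1.41-fold for regulators. The ratio was 1.17 for mitochondrial ribosome subunits with other names, 2.22 for mitochondrial mRNAs, 2.75 for translation factors and 2.89 for assembly genes.

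**Figure D1:**
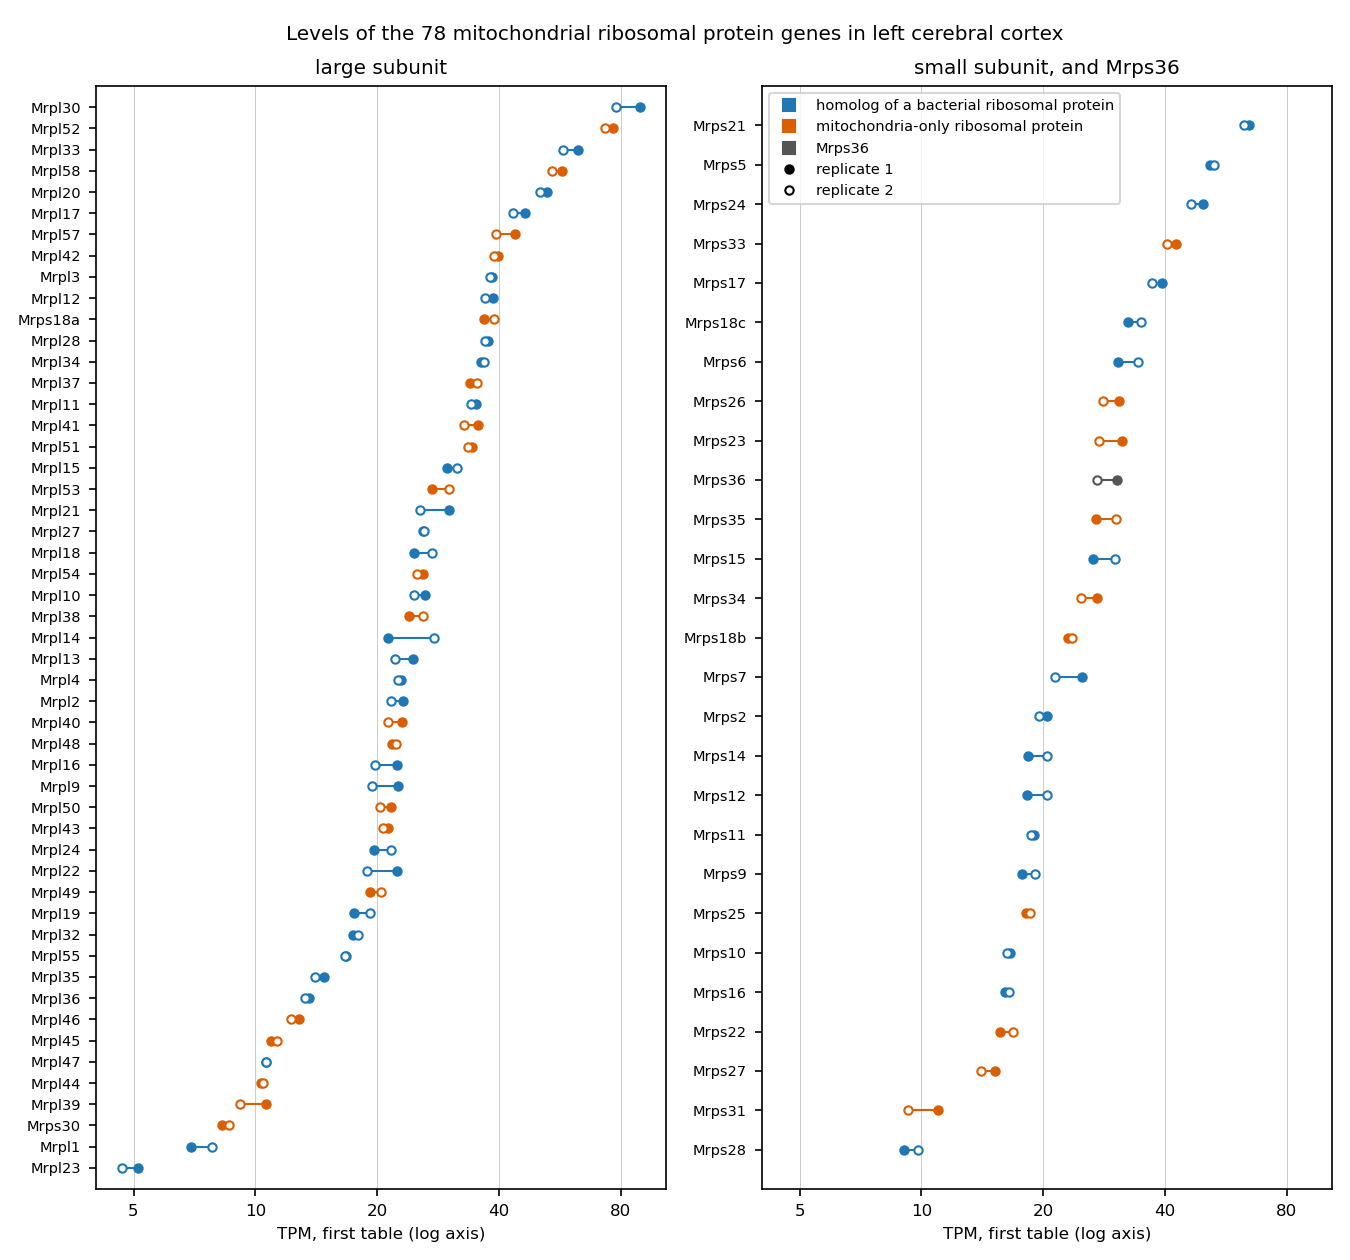
TPM of each of the 78 genes (log axis) in replicate 1 (filled) and replicate 2 (open), sorted by mean within the large subunit (left) and the small subunit with Mrps36 (right), coloured by whether the protein has a bacterial homolog. The values are those of the first table. Most genes lie between 10 and 60 TPM in both subunits, Mrpl30 is the highest and Mrpl23 the lowest, and the colours are mixed along the whole range.

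Among large subunit genes with a bacterial homolog, Mrpl30 was at 89.2 TPM in replicate 1 and 77.9 in replicate 2 (83.5 ± 8.01, SD, n = 2). Mrpl33 was at 62.5 and 57.5 TPM and Mrpl20 at 52.6 and 50.5 TPM. The values of these 3 genes did not overlap between genes. At the other end of the same class, Mrpl1, a protein of the mobile stalk beside the site where spent tRNA leaves, was at 6.94 and 7.80 TPM, and Mrpl23 at 5.14 and 4.67 TPM. The genes of the other stalk, which recruits translation factors, were higher, with Mrpl12 at 37.8 ± 1.27 TPM, Mrpl11 at 34.5 ± 0.714 TPM and Mrpl10 at 25.4 ± 1.09 TPM.

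Among large subunit genes found in mitochondria only, Mrpl52 led with 76.7 and 73.3 TPM. Both values were below both values of Mrpl30. In the second table, described below, this order turned in both libraries. Mrpl52 was at 137.4 and 137.4 TPM there, against 132.4 and 117.1 TPM for Mrpl30. It was followed by Mrpl58, a peptidyl-tRNA hydrolase that frees stalled ribosomes, at 57.3 and 54.0 TPM, and Mrpl57 at 43.9 and 39.3 TPM. The lowest of the class were Mrps30 at 8.27 and 8.59 TPM and Mrpl39 at 10.6 and 9.16 TPM. Mrpl45, which anchors the ribosome to the inner membrane, was also low, at 11.1 ± 0.276 TPM, and so was Mrpl44, at 10.4 ± 0.0566 TPM.

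In the small subunit the highest genes with a bacterial homolog were Mrps21 at 64.4 and 62.8 TPM, Mrps5 at 51.5 and 52.8 TPM and Mrps24 at 49.5 and 46.3 TPM. The lowest were Mrps28 at 9.03 and 9.80 TPM and Mrps16 at 16.1 and 16.5 TPM. Mrps12, a protein of the decoding centre, was at 18.3 and 20.4 TPM. Of the genes found in mitochondria only, Mrps33 was highest at 42.6 and 40.4 TPM, then Mrps26 at 29.5 ± 1.92 TPM and Mrps23 at 29.3 ± 2.67 TPM, whose values overlapped. The lowest of them were Mrps31 at 10.96 and 9.27 TPM and Mrps27 at 15.2 and 14.1 TPM.

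The 3 genes of the Mrps18 family encode relatives of a single bacterial protein that sit at different places in the ribosome. In the classes above, only Mrps18c was counted as a bacterial homolog, and Mrps18a and Mrps18b as found in mitochondria only. Mrps18a was at 36.7 and 38.9 TPM, Mrps18c, the closest counterpart of the bacterial protein, at 32.3 and 34.9 TPM, and Mrps18b at 23.0 and 23.5 TPM. Mrps18b was below both relatives in both libraries, and no value of Mrps18c reached those of Mrps18a. In the second table, described below, Mrps18b was again the lowest, at 40.8 and 43.9 TPM. There Mrps18c was above Mrps18a in each library, at 60.9 and 64.5 TPM against 57.4 and 63.8 TPM. Mrps36 was at 30.4 and 27.1 TPM and Mrps6 at 30.6 and 34.2 TPM.

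The classes differed little. The large subunit had a median of 24.3 TPM and the small subunit 23.2 TPM. Genes with a bacterial homolog had a median of 23.1 TPM and genes found in mitochondria only 24.4 TPM, and this order turned in the second table described below, at 39.2 and 38.5 TPM. Over the 4 combinations the medians ran from 21.8 TPM, for small subunit genes with a bacterial homolog (SD 1.29 between the libraries), to 24.6 TPM, for small subunit genes found in mitochondria only (SD 0.569). No test was made between classes, whose members are not replicates. Genes given a shorter length tended to higher levels, with Spearman's rho of -0.573 over the 78 genes, which share libraries and a length correction. The length was the one the first table gives each gene in replicate 1. It is not the length of a single annotated transcript: for Mrpl52 it was 413.15 bases, while the leading transcript has 418. TPM is scaled by effective length, so the 2 values are not independent.

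The libraries ranked the genes alike, with Spearman's rho of 0.979 over the 78 genes. The median SD between libraries was 4.49% of the mean. The largest was 18.5%, for Mrpl14, at 21.3 TPM in replicate 1 and 27.7 in replicate 2. Of the 77 pairs of neighbours in the ranking by mean, 22 had ranges over the libraries that did not overlap, and the rest were not ordered beyond that spread. The order of neighbours within each library was not counted, nor was the same share among other genes.

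Beside the machinery they work with, the members stood above most partners and far below the cytosolic ribosome. The median of cytosolic ribosomal protein genes was 319 TPM, 13.2 times that of the members, and 74 of 82 were above Mrpl30, the highest member of the first table. The 13 mRNAs of the mitochondrial genome, the substrates of this ribosome, had a median of 1324 TPM, 54.8 times that of the members. Of the 13, 12 were in the first table above every member in both libraries, and the exception, mt-Co2, was at 69.9 TPM in replicate 1, below Mrpl30 and Mrpl52, and at 172 TPM in replicate 2. The second table, described below, had 10 of them above every member, with mt-Atp8 at 0 as its mean level, mt-Nd4l at 0.480 TPM and mt-Nd3 at 5.50 TPM. The 5 mitochondrial ribosome subunits with other names had a median of 37.3 TPM, with Dap3, a small subunit GTPase, at 50.3 ± 3.76 TPM and Gadd45gip1, a large subunit protein, at 9.42 ± 0.424 TPM.

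The other lists of mitochondrial gene expression were lower. The 15 translation factors had a median of 12.3 TPM, and the highest were Slirp, an RNA-binding partner of Lrpprc that stabilises mitochondrial mRNAs, at 49.7 ± 0.651 TPM, the elongation factor Tufm at 46.6 ± 1.96 TPM and the membrane insertase Oxa1l at 34.8 ± 4.26 TPM. The release factor genes were the lowest, Mtrf1 at 2.01 and 2.46 TPM and Mtrf1l at 4.68 and 5.31 TPM. The 27 genes of ribosome assembly had a median of 10.5 TPM, from Ndufab1, an acyl carrier protein with further roles in complex I, at 110.9 ± 2.49 TPM and the helicase Dhx30 at 76.6 ± 2.26 TPM, down to Tfb1m, an rRNA methyltransferase, at 2.49 ± 0.127 TPM and the nuclease Ybey at 1.86 ± 0.0424 TPM. The 17 mitochondrial aminoacyl-tRNA synthetases had a median of 12.1 TPM, between Wars2 at 3.47 ± 0.0990 and Vars2 at 23.9 ± 3.73 TPM. Factors of mitochondrial transcription had a median of 18.1 TPM over 4 genes, led by the polymerase Polrmt at 23.2 ± 3.63 TPM, and 9 regulators of nuclear genes for mitochondria had a median of 14.7 TPM, led by Myc at 28.3 ± 0.672 TPM. All genes of these lists were detected. The leaders changed in the second table, described below. There Oxa1l was at 79.7 TPM, Tufm at 64.1 TPM and Slirp at 15.5 TPM. Dhx30, at 139 TPM, was above Ndufab1, at 129 TPM. Lars2 was at 51.7 TPM and Vars2 at 35.3 TPM. Tfam was at 36.9 TPM and Polrmt at 26.1 TPM, and Yy1 at 60.2 TPM and Myc at 40.4 TPM.

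**Figure D2:**
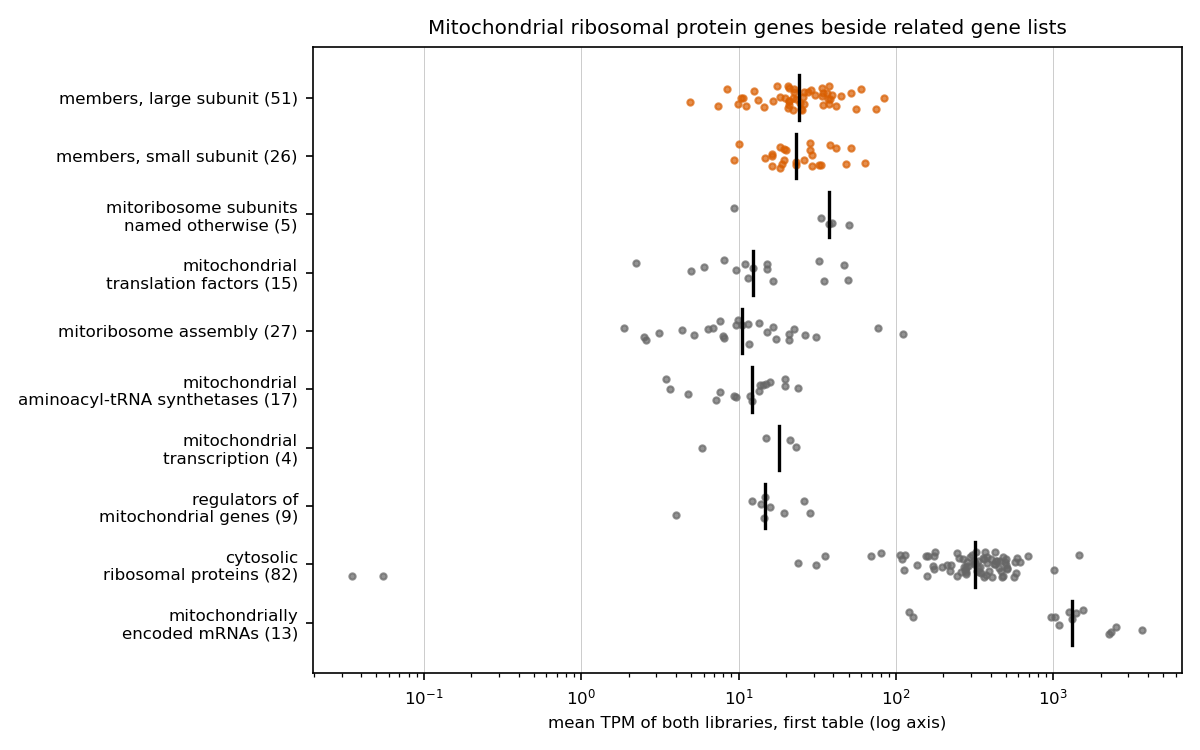
Mean TPM over both libraries (log axis) of each gene in the members' subunits (orange) and in related lists (grey), with the median of each list as a black line and the number of genes in brackets. Rpl10l, listed at 0, is not drawn. The members form a compact group around 24 TPM, above the medians of the assembly, translation factor and synthetase lists and below most of the cytosolic ribosomal proteins and, in these means of the first table, below the mitochondrially encoded mRNAs.

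Between the libraries most members were lower in replicate 2 by counts, by a small amount. By TPM 46 of 78 were lower there. The test was an exact two-sided binomial test of the expected counts with scaled library sizes, adjusted by Benjamini and Hochberg over all 18492 genes with enough counts. It accounts for counting error alone, and it sets 1 library against the other with no condition behind the difference. No member passed an adjusted p of 0.05 with at least a 2-fold ratio, which 2.92% of all tested genes and 0.229% of 13121 detected protein-coding genes did. At an unadjusted p of 0.05 in the same exact test there were 18 members (23.1%), against 34.1% of all tested genes. At an adjusted p under 0.05 with no limit on the ratio there were 8 members, all higher in replicate 1, where 24.7% of all tested genes passed, 12.1% as higher in replicate 1 and 12.6% as higher in replicate 2. The second table described below gave 14 such members (all higher in replicate 1), where 29.8% of tested genes passed and 15.8% as higher in replicate 1.

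The 8 genes were Mrpl39, Mrpl22, Mrpl21, Mrps23, Mrpl9, Mrpl13, Mrps7 and Mrps26. Mrpl39 had 372 and 294 expected counts in replicates 1 and 2, a log2 ratio of -0.35 and an adjusted p of 0.0113 by the exact binomial test. Mrpl22 had 254 and 201 counts, a log2 ratio of -0.35 and an adjusted p of 0.0465 by the same exact test. Mrpl22 and Mrpl13 lost the call when total counts or no count filter were used, and both and Mrpl21 lost it in the second table described below, so that 5 of the 8 kept it under every setting. Mrpl9 had the smallest adjusted p of the exact test among the members, 0.00389, with 648 and 534 counts and a log2 ratio of -0.29. In the other direction the largest ratios were those of Mrpl14 (0.22), Mrps35 (0.17) and Mrpl45 (0.11), and none passed.

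Over all members, 60 of 78 had a log2 ratio below 0 and the median was -0.12. Over all tested genes 49.9% were below 0 and the median was 0.00, and over 10112 protein-coding genes of the same range of lengths 58.3% were below 0 with a median of -0.04. Cytosolic ribosomal protein genes were shifted the same way, with 78 of 79 tested genes below 0 and a median of -0.18. The median was -0.17 for the 5 mitochondrial ribosome subunits with other names, -0.08 for the 13 mitochondrial mRNAs and -0.04 for the 4 transcription genes. It was 0.01 for the 27 assembly genes, 0.03 for the 15 translation factors and for the 9 regulators, and 0.07 for the 17 synthetases. With library sizes set by total counts, 53 of 78 members were below 0 with a median of -0.08, against 42.3% of all tested genes with a median of 0.04 and 50.6% of the genes of the same lengths. In bulk tissue, fewer cells of a type and less RNA per cell cannot be told apart.

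**Figure D3:**
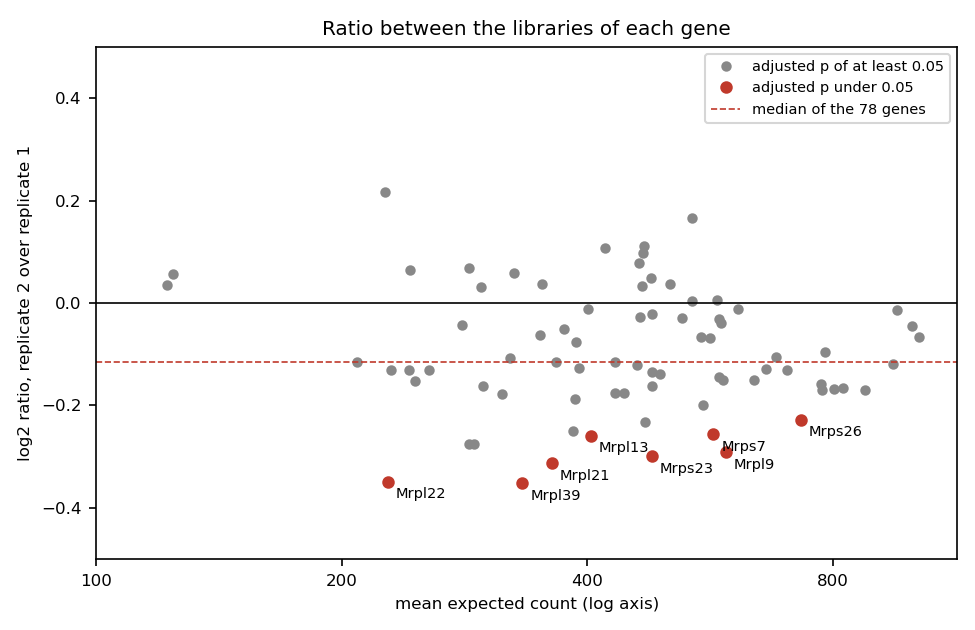
Log2 ratio of replicate 2 over replicate 1 against the mean expected count (log axis) of each of the 78 genes, with genes at an adjusted p under 0.05 in red and the median of all as a dashed line. The points centre on -0.12, no gene reaches a ratio of 1 or -1, and all 8 red genes lie below 0.

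The level of the lowest member, Mrpl23, depended on the table it was read from. Mrpl23 (ENSMUSG00000037772.13, chr7:142532686-142540747, plus strand, mm10) encodes a large subunit protein near the exit of the nascent chain. The annotation holds a processed pseudogene of it, Mrpl23-ps1, an intronless copy on another chromosome (chr2:74591330-74591909, minus strand). All 438 coding bases of transcript Mrpl23-201, without its stop codon, were found in the pseudogene with no difference. The first 120 coding bases are shown because both loci hold them letter for letter, and the capitals mark the 2 bases that meet at the first exon junction, which the pseudogene holds as well.

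Mrpl23 and Mrpl23-ps1: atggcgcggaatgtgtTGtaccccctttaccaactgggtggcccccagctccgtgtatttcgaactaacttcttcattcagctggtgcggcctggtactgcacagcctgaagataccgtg

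In the first table, whose values are used above, the gene had 121 and 127 expected counts in replicates 1 and 2, and the pseudogene had 371 and 354. The gene thus held 24.7% and 26.4% of their joint counts. The deposited posterior SD of the gene's count, a measure of how uncertain the split of shared reads was, came to 18.5% and 14.4% of the count. For 53 of 78 members this SD was 0 in both libraries, and it passed 1% of the count only for Mrpl23, Mrpl53, Mrps33 and Mrps34 among the members. Other genes were not counted in this way.

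The second table, a transcript table that another quantifier made from the same reads, put the reads on the gene. There Mrpl23 was at 80.7 and 78.4 TPM and the pseudogene at 0 in both libraries, against 5.14 and 4.67 TPM for the gene and 39.7 and 39.8 TPM for the pseudogene in the first table. The second table was therefore 15.7 and 16.8 times the first for Mrpl23. With the pseudogene added, the first table gave 44.8 and 44.5 TPM, and the ratios were 1.80 and 1.76, close to the members' medians of 1.59 and 1.56. That joint level lies between those of Mrpl17, at 44.9 TPM, and Mrpl57, at 41.6 TPM. Most of what the first table left on Mrpl23 itself was on the retained intron transcript Mrpl23-205, with 74.6 and 90.6 counts, against 15.3 and 14.1 on Mrpl23-201. Variants of the CAST/EiJ genome were not modelled, and whether they separate the loci was not tested.

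Mrps33, a small subunit gene with 42.6 and 40.4 TPM, had a close copy too. Its 318 coding bases differed from the processed pseudogene Gm5776 at 1 base, G171A, counted from the first coding base of Mrps33. The surrounding bases 141 to 200 are shown with that base in capitals. Reads that lie within the 318 coding bases and miss that base are the same for both loci. Transcript Mrps33-201 has 1107 bases in all, and those outside the coding sequence were not part of this alignment.

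Mrps33: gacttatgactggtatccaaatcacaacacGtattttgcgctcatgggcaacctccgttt
Gm5776: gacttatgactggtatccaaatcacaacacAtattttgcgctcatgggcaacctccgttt

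Gm5776 was at 16.6 and 11.98 TPM in the first table, 71.7 and 49.2 counts with a posterior SD of 13.5 and 12.02, and at 0 in the second. Other close copies took fewer reads in the first table. Mrpl48-ps, identical to the coding sequence of Mrpl48 at 98.1% of 633 bases, was at 3.61 and 3.94 TPM, AC154457.3, a copy of Mrps10, at 3.32 and 3.35 TPM, and Gm13328, a copy of part of Mrps5, at 3.45 and 2.70 TPM. The second table did not leave all of them empty. It gave AC154457.3 7.52 and 5.44 TPM, Gm13328 0.154 and 0 TPM, and Mrpl48-ps 0 TPM in both libraries. Gm13552 matched 413 of 414 aligned bases of Mrps18b and yet was at 0 in both libraries and both tables. Nearly identical copies were thus given very different numbers of reads in replicate 1 of the first table, from 371 counts for Mrpl23-ps1 to none for Gm13552.

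Pseudogenes were not the sole source of shared sequence. In windows of 50 bases, 33 of 78 members shared none with another gene and 12 shared more than 10% of theirs. Windows were counted for the members only, so whether they share more or less than other genes is not known. Mrpl53 shared 82.0% of its windows with the overlapping gene Gm42688, and Mrps34 shared 34.2% with its neighbour Nme3, into which a transcript of Mrps34 is annotated to run. The posterior SD was 6.86 of 317 counts in replicate 1 for Mrpl53 and 4.54 of 447 counts for Mrps34.

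The tables differed in scale for all genes. The second was a median 1.52 and 1.49 times the first in TPM over the 13124 detected protein-coding genes, and nuclear protein-coding genes held 50.4% and 51.2% of all TPM in the first table but 81.7% and 81.3% in the second. With a ratio of at least 2 in both libraries, 9 members stood apart, Mrpl22, Mrpl23, Mrpl27, Mrpl3, Mrpl35, Mrpl36, Mrpl48, Mrps24 and Mrps33, beside 6.70% of detected protein-coding genes. None was at a ratio of 0.5 or less. After Mrpl23 the largest ratios were those of Mrpl27, at 2.98 and 3.09, and Mrpl35, at 3.02 and 2.75. By counts, Mrpl23 alone had a ratio of 2 or more in both libraries, beside 0.511% of detected protein-coding genes.

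**Figure D4:**
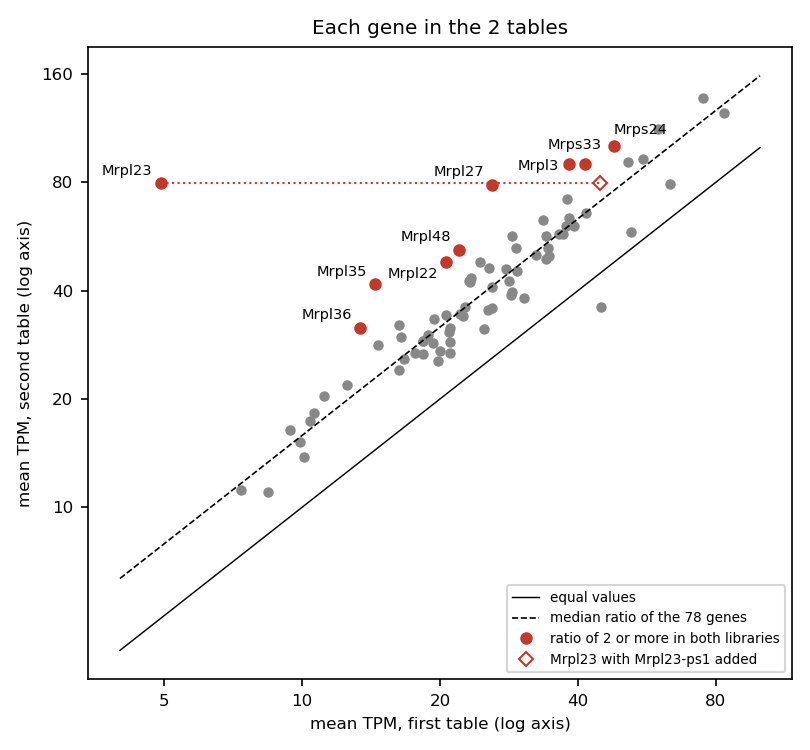
Mean TPM of each member in the second table against the first (log axes), with the line of equal values, the median ratio (dashed) and the 9 genes with a ratio of at least 2 in both libraries in red. Mrpl23 lies far from the others, and adding Mrpl23-ps1 to the first table (diamond) brings it next to the dashed line.

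The members had 343 annotated transcripts, from 1 in 3 genes to 11 in Mrpl33, Mrps10 and Mrps17. Transcripts annotated as protein coding held 73.3% and 71.4% of the members' TPM in the first table, and transcripts with a retained intron 14.3% and 14.7%. Of the 75 genes with several transcripts, 67 had the same leading transcript in both libraries (89.3%, beside 88.1% of 11873 protein-coding genes with several transcripts), and 50 had the same one in both libraries and both tables (66.7%, beside 65.9%).

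In 15 of the 75 genes the leading transcript of the first table was of a class other than protein coding in both libraries, beside 6.47% of the same 11873 genes. For 13 of the 15 this held in the second table too: Mrpl3, Mrpl15, Mrpl19, Mrpl32, Mrpl35, Mrpl47, Mrpl51, Mrpl57, Mrps16, Mrps24, Mrps25, Mrps26 and Mrps35. In Mrpl57 the retained intron transcript Mrpl57-202 held 93.9% and 90.0% of the gene's TPM, and in Mrps26 the retained intron transcript Mrps26-201 held 89.0% and 89.4%. Protein-coding transcripts were left with 8.08% ± 2.77 of TPM in Mrpl57, 10.8% ± 0.256 in Mrps26, 11.4% ± 1.14 in Mrps24 and 11.7% ± 0.0467 in Mrps16.

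These shares are of a level per length, and in several of these genes the coding transcript is annotated as much longer. Mrpl57-202 has 519 bases and the coding Mrpl57-201 has 2877, so that in counts the coding transcript had 145 and 203 against 336 and 275. In Mrpl51, the large subunit gene led by Mrpl51-202, a transcript with no annotated coding sequence, the coding Mrpl51-201 had 10.1% and 12.8% of TPM but 223 and 264 counts, against 274 and 240 for the leader. Mrps14 and Mrpl13 were led by transcripts annotated for nonsense-mediated decay in the first table and by coding transcripts in the second. The protein-coding share of Mrps14 was 12.4% ± 5.09 there, against 100% in the second table.

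The leader differed between the libraries in the first table for 8 genes: Mrpl14, Mrpl23, Mrpl40, Mrpl55, Mrps10, Mrps11, Mrps12 and Mrps23. In Mrps11 the coding Mrps11-201 held 54.8% of TPM in replicate 1 and 18.9% in replicate 2, while Mrps11-205, annotated for decay, held 30.7% and 60.2%. The gene as a whole was at 19.0 and 18.6 TPM. The second table put Mrps11-201 in front in both libraries. In Mrpl14, the most variable member, the coding Mrpl14-201 was at 14.6 and 13.5 TPM while the transcript Mrpl14-202, which has no annotated coding sequence, was at 6.37 and 13.6 TPM.

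**Figure D5:**
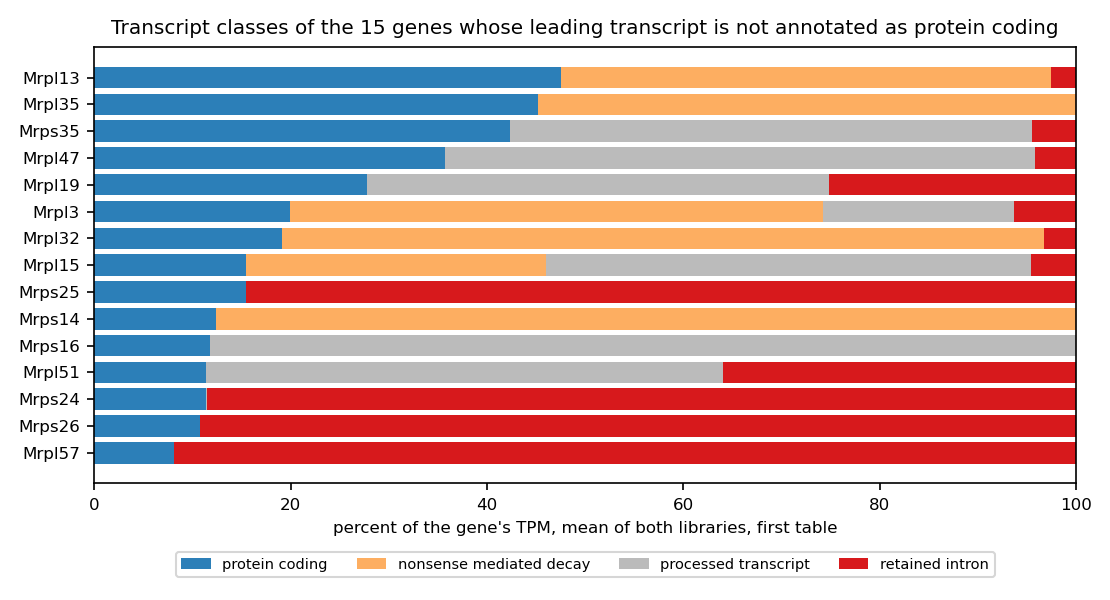
Share of each gene's TPM in 4 transcript classes, mean of both libraries in the first table, for the 15 genes whose leading transcript is not annotated as protein coding, in both libraries. Protein-coding transcripts hold less than 50% in each of them, and retained intron transcripts hold most of the TPM of Mrpl57, Mrps26, Mrps24 and Mrps25.

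The members lay on 17 chromosomes, 11 of them on chromosome 11. The start of 33 of 78 members (42.3%) lay within 1000 bases of the start of a protein-coding gene on the opposite strand, which held for 15.4% of detected protein-coding genes and 10.8% of all. The distances had a median of 128 bases, and 21 of the 33 were within 200 bases. They formed 32 different pairs. Mrpl46 and Mrps11 were partners of each other, 412 bases apart, and gave 12.5 ± 0.431 and 18.8 ± 0.276 TPM. Other members were paired with genes of mitochondria: Mrpl36 with Ndufs6 and Mrpl47 with Ndufb5, both for complex I subunits, Mrps12 with the synthetase gene Sars2, Mrpl43 with the helicase gene Twnk and Mrps27 with Ptcd2.

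The levels of partners varied, from far above the member to far below it. Some were close, such as Ptcd2 at 16.4 ± 0.926 TPM beside Mrps27 at 14.6 ± 0.799 TPM. Pairs were not compared with those of other genes. Of the 31 members whose partner was not itself a member, 12 had a partner that was higher in both libraries and 19 had one that was lower. Mrpl49, at 19.8 ± 0.933 TPM, started 59 bases from Fau, a gene of a cytosolic ribosomal protein, at 443 ± 11.9 TPM. Mrpl30, at 83.5 TPM, started 66 bases from Mitd1, at 4.21 ± 0.778 TPM. Overlap with a gene on the opposite strand was annotated for 36 of 78 members (46.2%, beside 45.1% of detected protein-coding genes), and whether the counting used strand is not given in the sources used here, so reads of such pairs may not be separated.

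Promoter windows of RefSeq, 250 bases before to 50 after the start on GRCm38.p6, were found for 69 of the 78 members. The windows were searched on both strands for exact matches to short motifs, of which CCGGAAGT is bound by ETS factors such as GABPA, GCGCATGCG by NRF1 and AAGATGGCG by YY1, regulators known for nuclear genes of mitochondria. CCGGAAGT was in the windows of 12 members (17.4%), against 8.83% of 10194 detected protein-coding genes and 4.31% of 27025 genes in the table. GCGCATGCG was in those of 7 members (10.1%, against 4.05% and 1.95%) and AAGATGGCG in those of 8 (11.6%, against 3.50% and 1.64%). At least 1 of the 3 was found for 26 members (37.7%), against 15.4% of detected protein-coding genes.

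GGGCGG, the core of SP1 sites, was in the windows of 49.3% of members, which is below the 70.4% of detected protein-coding genes but above the 38.2% of all genes in the table. CCAAT was in 39.1% (against 43.1% and 41.1%), TATAAA in 7.25% (against 8.35% and 15.7%) and CACGTG in 7.25% (against 11.7% and 8.09%). For each of the first 3 motifs, the highest member by TPM with a single window and a match before its RefSeq start is shown over 100 bases, with the match in capitals. They are Mrpl3 at chr9:105053168-105053267 (plus strand), Mrpl17 at chr7:105811088-105811187 (minus strand) and Mrps11 at chr7:78782977-78783076 (plus strand).

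Mrpl3: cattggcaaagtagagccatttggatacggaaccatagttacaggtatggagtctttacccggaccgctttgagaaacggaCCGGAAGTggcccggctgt
Mrpl17: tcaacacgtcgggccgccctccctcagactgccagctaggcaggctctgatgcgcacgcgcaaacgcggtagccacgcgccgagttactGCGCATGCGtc
Mrps11: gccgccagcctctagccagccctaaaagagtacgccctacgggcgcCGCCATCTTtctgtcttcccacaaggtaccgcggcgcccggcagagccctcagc

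In Mrpl3 the match spanned bases 19 to 12 before the RefSeq start, in Mrpl17 bases 11 to 3, and in Mrps11 bases 108 to 100, there as the reverse complement of the motif. The Mrps11 stretch also lies inside its partner Mrpl46 (chr7:78775236-78783531, minus strand), on whose strand the match reads as the motif. Annotation M21, used for the levels, starts Mrpl3 at 105053239 and Mrpl17 at 105811099. By those starts the matches of Mrpl3 and Mrpl17 lie inside the genes, and only that of Mrps11 lies before its start. These genes were at 38.3 ± 0.354, 44.9 ± 2.18 and 18.8 ± 0.276 TPM. A match is a description of letters and was not compared with binding. The genes of the factors themselves were detected, with Yy1 at 26.0 ± 2.31 TPM, Nrf1 at 14.6 ± 2.18 TPM and Gabpa at 12.2 ± 1.01 TPM.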

How the data were processed

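Gene and transcript tables of both libraries (first table) and a transcript table from another quantifier (second table) were used. Per the file headers, the first table holds expected counts, TPM and a posterior standard deviation of each count, deposited as a score, and the second holds estimated counts and TPM; per the deposited file descriptions the first was made from transcriptome alignments and the second directly from reads, on mm10 with annotation M21. Aligner and quantifier versions: not given in the sources used here. The authors' expected counts were rounded for tests, and entries without a gene name (0.330% and 0.346% of counts) were left out. TPM is the authors' deposited value, scaled by effective length.

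Library sizes were scaled by TMM (edgeR 4.0.16, R 4.3.3), and an exact binomial test (scipy 1.17.1), checked on simulated data, was run where both libraries together had 20 counts or more. Calls needed a 2-fold ratio, or 1 on the log2 scale after adding 0.5 counts, beside an adjusted p below 0.05. DESeq2 1.42.0 gave alternative size factors. A count interval at this depth covers counting error only. The members and all lists were chosen with earlier results of these data known. Genes named are the highest and lowest members overall and by class (6 and 6, 3 and 2), the 3 largest ratios each way, members apart between tables or with unusual leading transcripts, the Mrps18 family, Mrps36, Mrps30, Mrps6, and the extremes of each list; the stalk, decoding and anchor genes, pseudogenes and genes starting near a member were picked after their values were seen. Alternatives were the second table, other scalings and thresholds, and each library alone.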

Additional observations from a re-analysis of the deposited data

How the results depend on the processing

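All 78 genes were detected at 0.5 TPM or more, in the second table and in each library alone, and 77 at 5 TPM or more. Levels moved with the table and with the scale of TPM, and bacterial homologs and mitochondria-only proteins changed order in the second table. In the second table the medians were 39.2 TPM for all members, 39.7 for the large and 37.4 for the small subunit, 39.2 for bacterial homologs, 38.5 for mitochondria-only proteins, 40.2 and 39.7 for these classes in the large subunit and 36.8 and 37.4 in the small. There the lists stood at 59.7 (subunits named otherwise), 17.1 (translation factors), 15.8 (assembly), 19.3 (synthetases), 23.4 (transcription), 22.0 (regulators), 612 (cytosolic ribosomal proteins) and 1647 TPM (mitochondrial mRNAs). With TPM rescaled so that nuclear protein-coding genes sum to 1000000, the same medians were 47.6, 47.9, 45.8, 45.5, 48.0, 46.7, 48.3, 42.9 and 48.4 TPM for the members and classes and 73.5, 24.3, 20.6, 23.8, 35.6, 28.9, 629 and 2607 TPM for the lists. With either library left out, the members' median was between 24.1 and 24.2 TPM. No member was called with a 2-fold ratio under other size factors, total counts, no count filter or the second table. Members with an adjusted p under 0.05 numbered 14 in the second table, where 29.8% of tested genes passed, against 8 (24.7%), and from 6 to 8 under the other settings (14.7% to 24.7%). Mrpl13, Mrpl21 and Mrpl22 lost that call under 1 or more of them. Genes apart between the tables fell from 9 to 1 by counts and were 11 with either library alone, and genes led by a transcript not annotated as protein coding were 15 to 18 with either library alone and 16 in the second table. Adding Mrpl23-ps1, an alternative chosen after seeing the data, put Mrpl23 at 44.6 TPM, against 4.91. No paired analysis was possible because there is a single group. The cause of these shifts was not tested. The members' 120 to 1040 counts per library limit how small a ratio the test can call.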
